A study of Mus musculus with 49 samples.

Results

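Keratins are the intermediate filament proteins of epithelial cells, and 8 keratin genes were followed here through the culture of mouse hepatocytes and their conversion into other epithelial states. They were Krt8 and Krt18, the pair that simple epithelia share; Krt7, Krt19 and Krt23, which are known from bile ducts and other ductal epithelia; Krt20, known from the differentiated gut epithelium; and Krt4 and Krt17, known from stratified epithelia. The members were chosen by symbol, as the rows of the deposited count table whose Ensembl identifier belongs to one of these genes, and each of the 8 symbols matched 1 row. The table held 54 keratin rows among 46078 identifiers.

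The libraries were CEL-seq2 libraries, which tag the 3′ end of each polyadenylated transcript with a molecular identifier, so that a value is a number of distinct molecules and does not grow with transcript length. The series held 49 libraries in 16 conditions, and the question it addressed was how adult hepatocytes lose their identity in monolayer culture and which epithelial states the resulting cells can take up. All cells came from wild-type C57BL/6J mice. Hepatocytes were prepared from 10-week-old males by collagenase perfusion and centrifugation away from the non-parenchymal cells, so that a few ductal, mesothelial or other liver cells could have come along. They were sampled as freshly isolated cells (3 libraries) and after 3 h, 1 day, 2 days, 4 days, 1 week and 2 weeks on type I collagen with epidermal growth factor (3 libraries each). A separate 1-week culture received 0.3 µM verteporfin, an inhibitor of the Hippo pathway effector Yap, or the solvent DMSO (2 libraries each). Passaged monolayer cells, called dediHeps, gave 5 libraries, and their aggregates in 3D culture gave 3. Spherical organoids (dediHep-SO, 3 libraries) were grown from dediHeps in Matrigel with intestinal niche factors including Wnt. Budding organoids (dediHep-BO, 3 libraries) came from dediHeps transduced with a Cdx2 retrovirus and grown on without the added Wnt3a and CHIR99021, so Cdx2 and the medium changed together between the spherical and the budding form. The gut references were spherical organoids of fetal intestinal progenitor cells of E13.5 embryos (FIPC-SO, 3 libraries) and budding organoids of adult intestinal stem cells of 10-week-old males (ISC-BO, 4 libraries). CLiPs (3 libraries) were hepatocytes reprogrammed with the small molecules Y-27632, A-83-01 and CHIR99021.

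Keratin filaments are obligate pairs of a type I and a type II protein, and a cell therefore makes members of both types together. Adult hepatocytes carry Krt8 and Krt18 alone, while bile duct cells add Krt7 and Krt19, which are the usual stains for ductal cells and for ductular reactions in injured liver. In the gut, Krt8, Krt18 and Krt19 line the whole epithelium and Krt20 marks its differentiated upper part, whereas Krt4 is the keratin of the wet stratified epithelia such as esophagus and Krt17 is a keratin of basal cells and wounded skin.

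The 8 genes lie in the mouse type II cluster on chromosome 15 and the type I cluster on chromosome 11 (GRCm38, GENCODE annotation). Krt8 (ENSMUSG00000049382) is at chr15:101996698-102004482 on the minus strand and Krt18 (ENSMUSG00000023043), the only type I gene on that chromosome here, is beside it at chr15:102028180-102032027 on the plus strand. The 2 genes are transcribed away from each other across 23697 bp with 0 other genes wholly inside the gap. Krt7 (ENSMUSG00000023039) spans chr15:101411043-101430313 on the plus strand and Krt4 (ENSMUSG00000059668) spans chr15:101918535-101924735 on the minus strand. On chromosome 11, all on the minus strand, are Krt20 (ENSMUSG00000035775, chr11:99428403-99438150), Krt23 (ENSMUSG00000006777, chr11:99477974-99493137), Krt19 (ENSMUSG00000020911, chr11:100140810-100148665) and Krt17 (ENSMUSG00000035557, chr11:100256217-100261029).

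RefSeq promoter windows (GRCm38.p6, 250 bases before to 50 after the annotated start) matched 5 of the 8 members, and 4 are printed, the early Krt8 and Krt18, Krt20, which appeared at 1 day, and the later Krt7, 5′ to 3′ on the strand of the gene: Krt8 and Krt18 (chr15:102004293-102004592, minus strand, and chr15:102027966-102028265, plus strand), Krt20 (chr11:99438104-99438403, minus strand) and Krt7 (chr15:101412153-101412452, plus strand). Capitals mark the TATA box letters TATAAA and the TEAD letters GGAATG, on either strand.
Krt8: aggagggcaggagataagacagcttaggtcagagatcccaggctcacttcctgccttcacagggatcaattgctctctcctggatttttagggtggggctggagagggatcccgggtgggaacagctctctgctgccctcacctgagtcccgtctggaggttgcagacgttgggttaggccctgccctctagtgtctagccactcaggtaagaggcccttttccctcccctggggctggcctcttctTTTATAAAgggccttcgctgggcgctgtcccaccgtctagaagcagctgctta
Krt18: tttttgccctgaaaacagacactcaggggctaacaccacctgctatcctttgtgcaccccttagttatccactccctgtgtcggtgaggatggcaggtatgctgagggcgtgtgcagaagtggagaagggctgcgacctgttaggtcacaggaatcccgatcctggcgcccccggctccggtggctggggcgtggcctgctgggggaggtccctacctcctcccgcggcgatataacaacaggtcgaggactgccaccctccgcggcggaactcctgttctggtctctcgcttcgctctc
Krt20: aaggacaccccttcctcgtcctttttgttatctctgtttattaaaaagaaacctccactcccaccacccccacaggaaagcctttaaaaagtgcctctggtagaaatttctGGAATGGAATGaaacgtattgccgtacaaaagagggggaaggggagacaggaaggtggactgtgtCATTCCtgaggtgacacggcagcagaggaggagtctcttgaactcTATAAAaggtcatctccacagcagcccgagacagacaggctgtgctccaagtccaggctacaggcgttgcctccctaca
Krt7: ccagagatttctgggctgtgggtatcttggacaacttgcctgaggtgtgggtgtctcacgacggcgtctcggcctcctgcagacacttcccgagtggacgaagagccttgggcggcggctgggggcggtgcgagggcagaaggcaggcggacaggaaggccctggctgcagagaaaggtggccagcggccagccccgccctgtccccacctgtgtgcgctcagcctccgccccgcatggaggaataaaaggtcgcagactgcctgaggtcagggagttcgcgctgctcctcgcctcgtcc

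A total of 5 sets of letters, chosen after the sequences had been seen, were searched on both strands: TATAAA (known as the TATA box), GGAATG (TEAD), TGANTCA (AP-1), TTTATG (CDX) and GGGCGG (GC box). The Krt20 window held TATAAA at position -29 from the start and GGAATG 3 times, at -139, at -134 (sharing 1 base with the first) and on the reverse strand at -74. Of 32544 RefSeq promoter windows of the same length, 13.6% held TATAAA, 14.6% held GGAATG at least once and 0.129% held it 3 or more times. The Krt8 window held TATAAA on both strands, at -3 and -1, the Krt7 window held GGGCGG 4 times, a set of letters present in 35.9% of windows and 3 or more times in 10.8%, and the Krt18 window held none of the 5. The other 2 sets were in 7.79% (TGANTCA) and 11.9% (TTTATG) of windows. Such matches describe the letters in these windows and say nothing about binding.

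The libraries held between 861047 and 3872936 counts (median 1976760), and all 54 pairs of replicates differed by more than sampling noise. Levels are given as counts per 1000000 counts (CPM) after TMM scaling over the 49 libraries, as mean ± SD. The 9 hepatocyte markers summed to 18878-25331 CPM in the freshly isolated libraries and to 111-141 CPM in dediHep-SO, and the dediHep libraries ranged from 986 to 4517 CPM. The molecular identifier had 6 bases, which gives 4096 possible tags per gene and library, and the abundant keratins came near that ceiling: the highest count was 3944 for Krt18 (96.3% of the tags) and 3837 for Krt8 (93.7%). More than 50% of the tags were used in 29 libraries for Krt18, 20 for Krt8 and 2 for Krt7, so the higher levels of Krt8 and Krt18 are compressed in the deposited counts. The ceiling also compresses the sums of hepatocyte markers. Alb held 11111 counts over the 3 freshly isolated libraries and 11375 over the 3 aggregate libraries. With counts corrected for repeated tags, the mean of Krt18 at 2 days was 2.32 times and that of Krt8 at 1 day 1.74 times the deposited one. In bulk libraries, more cells with a transcript and more transcript per cell cannot be told apart.

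**Figure D1:**
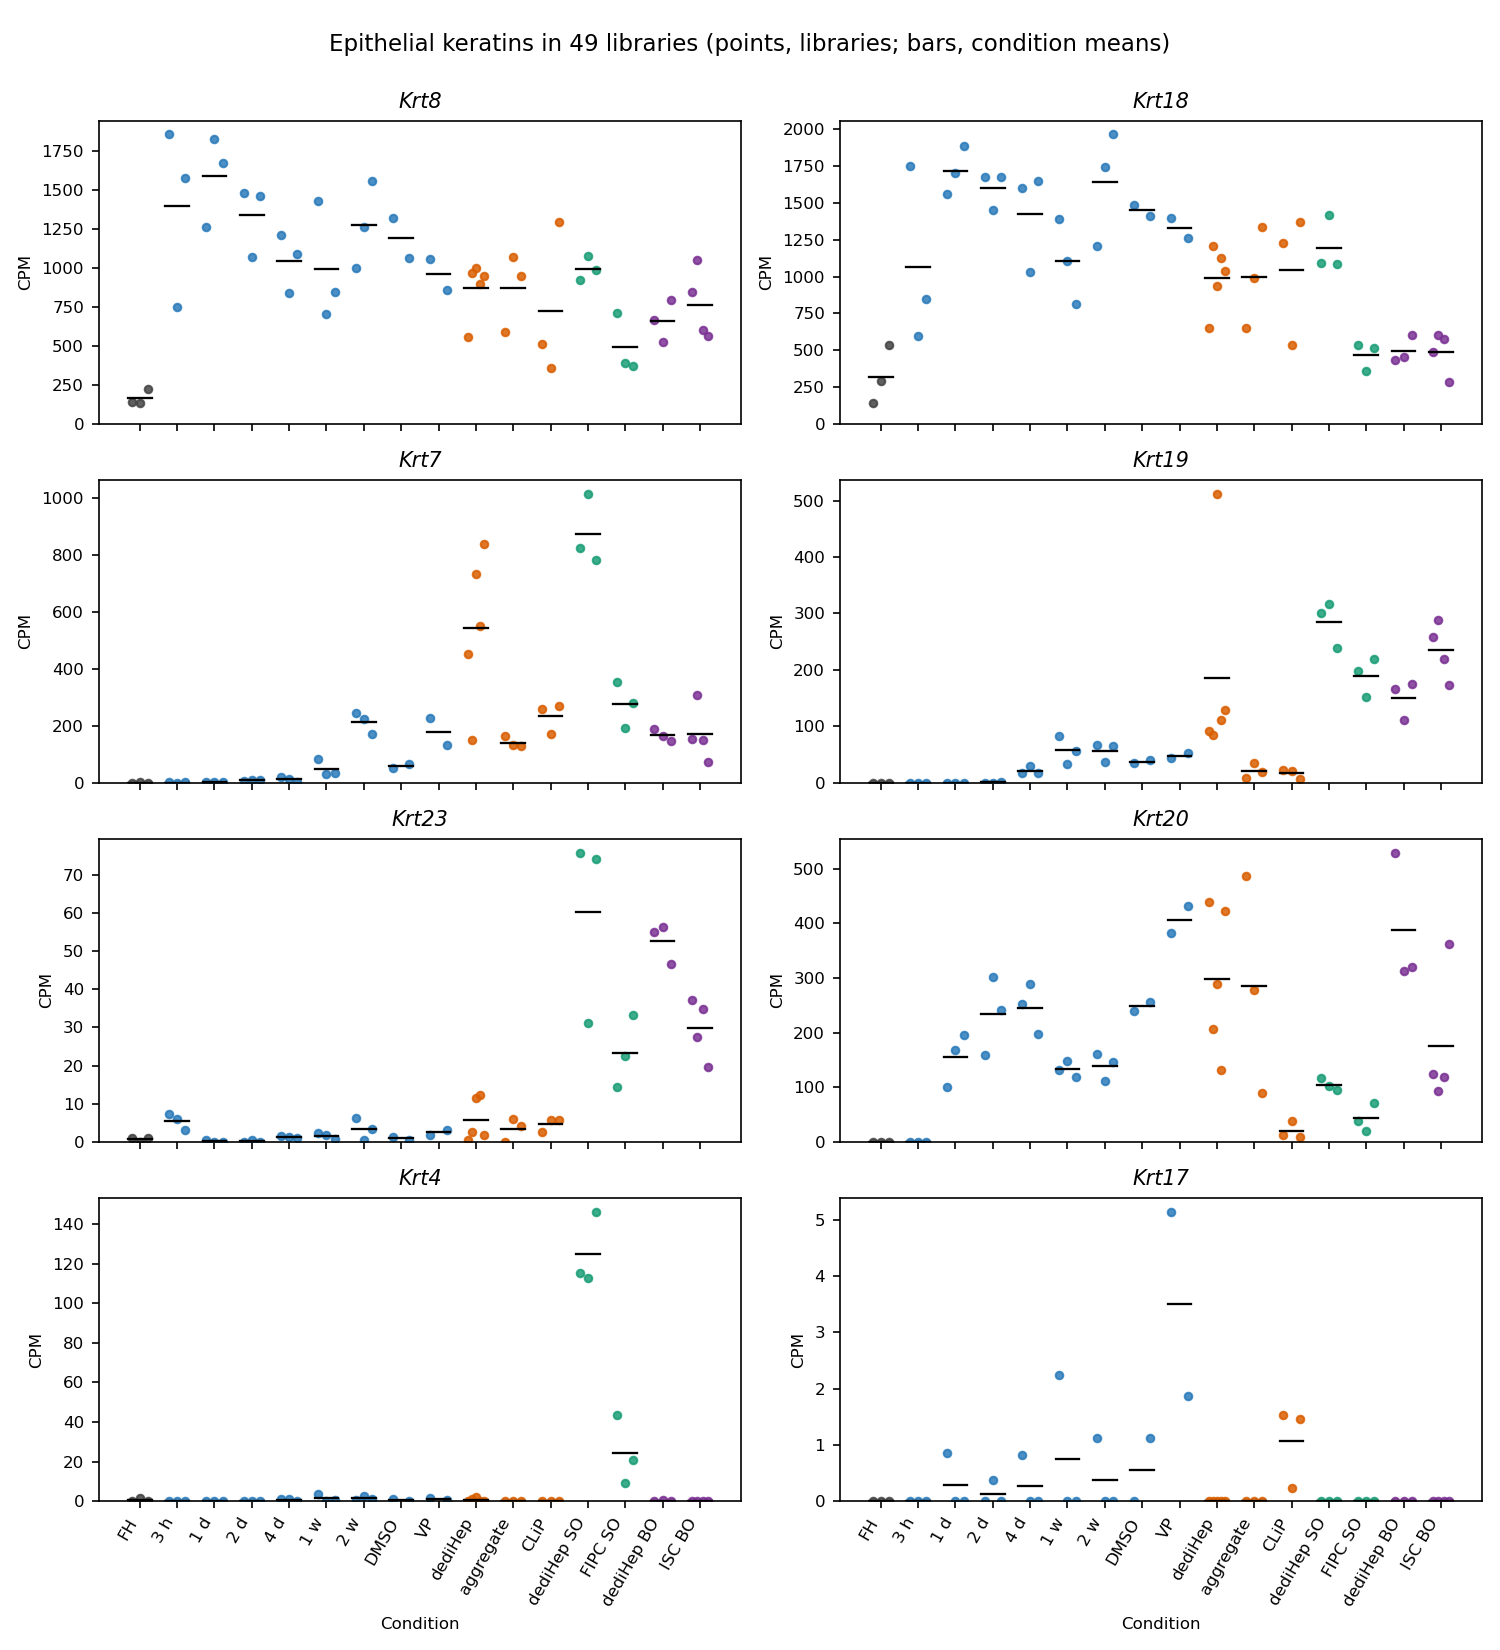
Level of each of the 8 keratins in every library, in CPM on a linear axis from 0 that differs between panels, with 1 panel per gene, 1 point per library, the 16 conditions along the x axis and a bar at each condition mean. Krt8 and Krt18 are present throughout and lowest in freshly isolated hepatocytes, Krt20 goes from 0 counts to above 100 CPM within 1 day, Krt7 and Krt19 climb over days to weeks, Krt4 is high in the 3 dediHep-SO libraries and Krt17 stays near 0.

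Krt8, the type II partner of the simple pair, was at 141, 133 and 222 CPM in the 3 freshly isolated libraries and at 1862, 750.2 and 1579 CPM 3 h after plating. At 1 day its values were 1263, 1829 and 1676 CPM. Every cultured, aggregated or organoid library lay above the freshly isolated ones, and the lowest of them was a CLiP library at 359 CPM. The condition means then ordered from 1 day (1589 ± 293 CPM, n = 3) down through 2 weeks (1276 ± 279, n = 3), dediHep-SO (996 ± 77.0, n = 3), dediHep (872 ± 181, n = 5) and dediHep-BO (663 ± 136, n = 3) to FIPC-SO (490 ± 192 CPM, n = 3), and in the order of all 16 condition means each condition down to FIPC-SO overlapped the next. The single gap between neighbours was the one between FIPC-SO and freshly isolated hepatocytes (166 ± 49.4 CPM, n = 3).

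Krt18, the type I partner, was more variable at the start, at 137, 287 and 535 CPM in freshly isolated cells. It stood at 1753, 597 and 848 CPM at 3 h and at 1562, 1701 and 1888 CPM at 1 day. All 3 libraries at 3 h and at 1 day were above the highest freshly isolated one. By condition, Krt18 was highest at 1 day (1717 ± 164 CPM, n = 3) and 2 weeks (1639 ± 391 CPM, n = 3), stood at 990 ± 214 CPM in dediHep (n = 5), and a lower set held dediHep-BO (494 ± 92.2 CPM), ISC-BO (486 ± 145), FIPC-SO (468 ± 97.6) and freshly isolated hepatocytes (320 ± 201). Among neighbours in the order of all 16 condition means, only dediHep and dediHep-BO did not overlap. The 2-week and dediHep libraries, which are no neighbours in that order, did not overlap either, though the lowest 2-week library (1207 CPM) and the highest dediHep library (1205 CPM) were close.

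The count ratio of Krt18 to Krt8 averaged 1.84 ± 0.767 in freshly isolated hepatocytes (0.969 to 2.40) and 0.758 ± 0.205 at 3 h. It was 1.14 ± 0.131 in dediHep and 1.20 ± 0.111 in dediHep-SO. Its values in the budding organoids were 0.754 ± 0.106 in dediHep-BO and 0.650 ± 0.203 in ISC-BO, and the dediHep-SO and dediHep-BO libraries did not overlap.

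Krt20 was absent from the counts of the earliest libraries. It had 0 counts in all 3 freshly isolated libraries and in all 3 libraries at 3 h, and 100.2, 168 and 197 CPM at 1 day (233, 330 and 389 counts). It was at 158, 301 and 241 CPM at 2 days and at 252, 288 and 197 CPM at 4 days. No freshly isolated or 3 h library approached any later one, and a total of 0 in the freshly isolated libraries, read as at most 3 counts over the group, puts the 1-day level at least 136-fold higher. The level at 1 week was 132, 148 and 118 CPM and at 2 weeks 161, 112 and 147 CPM. The dediHep libraries ranged from 132 through a median of 289 to 439 CPM, and the aggregates from 90.3 through 279 to 487 CPM, so these conditions spread widely and overlapped. Krt20 was lowest among the later states in CLiPs, at 13.3, 38.5 and 9.27 CPM, and in FIPC-SO, at 38.7, 20.3 and 70.8 CPM. It was highest in the verteporfin cultures (383 and 431 CPM) and in dediHep-BO (529, 314 and 320 CPM). Along the order of means the libraries of neighbouring conditions overlapped down to 1 week (133 ± 14.9 CPM), and gaps separated 1 week from dediHep-SO (104 ± 11.4 CPM), dediHep-SO from FIPC-SO (43.2 ± 25.6 CPM) and CLiPs (20.4 ± 15.8 CPM) from the 2 conditions at 0.

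Krt7, the type II keratin of ducts, was nearly uncounted in hepatocytes and high in the passaged cells. Its counts were 0, 1 and 0 in freshly isolated cells, 1, 0 and 1 at 3 h, 3, 5 and 4 at 1 day, and 14, 27 and 18 at 2 days. Its level was 21.6, 14.8 and 3.21 CPM at 4 days, 81.8, 31.1 and 34.0 CPM at 1 week, and 243, 222 and 171 CPM at 2 weeks. The 1-week and 2-week libraries did not overlap with each other or with any earlier one. In dediHep it ranged from 151 through a median of 549 to 838 CPM, and in dediHep-SO it was 824, 1013 and 781 CPM. Against the single count of the freshly isolated group, the count ratio was 22.5 (95% interval 3.89 to 904, counting error only) at 2 days, 133 (23.8 to 5283) at 1 week, 603 (108 to 23843) at 2 weeks and 1530 (275 to 60447) in dediHep; the single count was in replicate 2, without which the group is at 0. In the order of means dediHep-SO (873 ± 123 CPM) and dediHep (544 ± 267) led, a group from FIPC-SO (275 ± 81.9) to the aggregates (141 ± 20.5) followed with each condition overlapping the next, and gaps set apart the 1-week cultures, the cultures at 4 and 2 days, and the culture at 1 day.

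Krt19, the type I keratin of ducts and gut, had 0 counts in freshly isolated cells, at 3 h and at 1 day. The 3 libraries at 2 days held 0, 1 and 4 counts, and those at 4 days 16.7, 29.6 and 16.6 CPM (41, 68 and 31 counts). It was at 82.9, 33 and 56.4 CPM at 1 week and at 67.6, 37.0 and 65.3 CPM at 2 weeks. Read against at most 3 counts in the freshly isolated group, these levels were at least 19-fold (4 days), 53.1-fold (1 week) and 51.5-fold (2 weeks) higher. The 5 dediHep libraries held 92.5, 84.9, 512, 112 and 128 CPM, so that 1 of them (replicate 3) stood far above the other 4. The aggregates held 9.28, 34.8 and 19.5 CPM and CLiPs 23.1, 21.2 and 6.34 CPM, all below every dediHep library. Every organoid library of either origin held over 100 CPM, with dediHep-SO at 301, 317 and 238 CPM, ISC-BO at 259, 288, 219 and 173 CPM, FIPC-SO at 198, 152 and 219 CPM and dediHep-BO at 167, 112 and 175 CPM. Conditions from dediHep-SO to dediHep-BO overlapped in a chain in the order of means, and a gap separated dediHep-BO (151 ± 34.5 CPM) from the 1-week culture (57.4 ± 25.0 CPM).

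Krt23, a type I keratin of ductal and gut epithelia, was low in hepatocytes and monolayers. Its counts were 1, 0 and 1 in freshly isolated cells and 6, 6 and 3 at 3 h, a ratio of 7.32 (95% interval 1.70 to 66.0, counting error only) that was not tested because the gene did not pass the filter in that fit. From 1 day to 1 week no library exceeded 2.24 CPM, and the dediHep libraries held 0.547, 2.54, 11.4, 12.2 and 1.93 CPM. In organoids it was at 75.6, 31.1 and 74.2 CPM (dediHep-SO), 55.1, 56.2 and 46.6 CPM (dediHep-BO), 37.1, 27.5, 34.8 and 19.6 CPM (ISC-BO) and 14.3, 22.4 and 33.3 CPM (FIPC-SO). Every organoid library lay above every other library, and the highest of the others was a dediHep library at 12.2 CPM. Neighbouring conditions without overlap in the order of means were dediHep-BO against ISC-BO and FIPC-SO against dediHep.

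Krt4, the type II keratin of wet stratified epithelia, had its counts almost wholly in spherical organoids. It was at 116, 113 and 146 CPM in dediHep-SO (915 counts in all) and at 43.7, 9.04 and 20.7 CPM in FIPC-SO (202 counts). The dediHep-BO libraries held 1 count together, and ISC-BO, the aggregates, CLiPs and the 3 h, 1-day and 2-day cultures held 0. Monolayer cells held single or few counts: 5 at 4 days, 12 at 1 week (10 of them in replicate 1), 6 at 2 weeks and 9 over the 5 dediHep libraries. Krt17, the basal and wound keratin, had 34 counts in the whole table and passed the filter in no fit. It had 0 counts in freshly isolated cells, in dediHep, in the aggregates and in all organoids, 11 in the 2 verteporfin libraries (8 and 3), 7 in CLiPs (3, 1 and 3) and 6 at 1 week, all in replicate 1.

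The comparison of each time point with freshly isolated hepatocytes asked when plated hepatocytes change; all 6 contrasts share the same 3 freshly isolated libraries, so they are given side by side and not as independent results. Genes were called with edgeR's quasi-likelihood test at a Benjamini-Hochberg false discovery rate (FDR) under 0.1 and a change of more than 2 either way on the log2 scale. Of the 8 keratins, 5 passed the filter on low counts in this fit (Krt8, Krt18, Krt7, Krt19 and Krt20), and Krt23, Krt4 and Krt17 were not tested. Krt7, Krt19 and Krt20 held 1, 0 and 0 counts in freshly isolated cells and passed the filter through later libraries. They could hardly come out other than higher, so counts of calls that include them are not read against the share over all genes. Called higher were 1 keratin at 3 h (3.06% of the 12443 genes tested were called higher), 3 at 1 day (6.57%), 4 at 2 days (9.21%), 5 at 4 days (11.4%), 4 at 1 week (13.2%) and 5 at 2 weeks (14.1%). Krt8 rose by 3.09 ± 0.36 (log2 fold change ± SE, edgeR FDR 8.55e-06) at 3 h and by 2.83 ± 0.36 (FDR 9.05e-07) at 2 weeks. Krt18 rose by 2.26 ± 0.41 (FDR 0.000193) at 1 day, while its change at 3 h (1.74 ± 0.41, FDR 0.00892) and at 1 week (1.63 ± 0.41, FDR 0.00243) passed the FDR and missed the fold threshold. Krt20 was called from 1 day (FDR 1.1e-08), Krt7 from 2 days (FDR 0.00297) and Krt19 from 4 days (FDR 8.82e-05); at 1 day Krt7 did not pass (FDR 0.239). The calls of Krt18 rest close to the fold threshold: without freshly isolated replicate 1 its change was 1.92 at 1 day, 1.82 at 2 days, 1.68 at 4 days and 1.89 at 2 weeks, without replicate 2 or without 4-day replicate 1 or 3 its 4-day change was 1.97, 1.96 and 1.91, and without freshly isolated replicate 3 it was 2.32 at 3 h, 2.85 at 1 day, 2.76 at 2 days, 2.61 at 4 days and 2.22 at 1 week. Without 3 h replicate 2 the 3 h change was 2.03. On counts corrected for repeated tags the changes of the pair were larger, at 3.51 for Krt18 and 4.19 for Krt8 at 1 day.

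**Figure D2:**
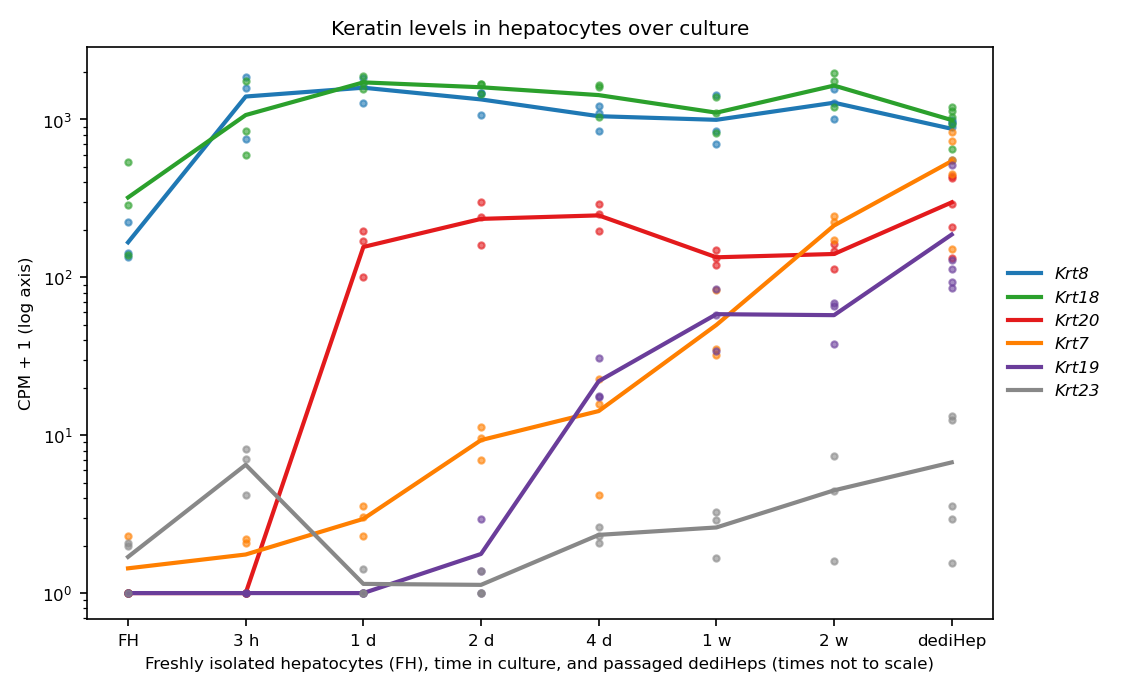
Level of 6 keratins in freshly isolated hepatocytes (FH), over 2 weeks of monolayer culture and in passaged dediHeps, as CPM + 1 on a log axis, with 1 point per library and lines through the condition means; times are not to scale. Krt8 and Krt18 are already high at 3 h, the mean of Krt20 goes from 0 to 155 CPM by 1 day, lies between 133 and 246 CPM up to 2 weeks and is 298 CPM in dediHep, and the means of Krt7 and Krt19 pass 10 CPM only at 4 days.

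Markers of other cells the cultures could hold moved over the same days. The 6 mesothelial markers summed to 0-1.30 CPM in freshly isolated cells, to 296-472 CPM at 2 weeks and to 452-1376 CPM in dediHep, nearly all of it Msln (391 CPM at 2 weeks and 785 CPM in dediHep), while Upk1b averaged 46.7 CPM (up to 217), Gpm6a 22.2, Wt1 14.9 (0 to 37.8), Upk3b 4.75 and Lrrn4 0.0617 CPM in dediHep. Both mesothelial markers tested there against freshly isolated cells were called higher (13.1% of all genes were). No mesothelial marker held more than 1 count in freshly isolated cells. The tested ones passed the filter through the dediHep libraries and could hardly come out other than higher. The 8 cholangiocyte markers summed to 20.9-128 CPM in freshly isolated cells, 948-1224 CPM at 2 weeks and 401-1157 CPM in dediHep, mostly Sox9 and Spp1, while Epcam was at 8.61 CPM and Cftr at 0 in dediHep. The 7 squamous and basal markers summed to 249-1099 CPM at 1 day, when Krt20 appeared, and to 1294-1826 CPM at 4 days, and nearly all of this was Sprr1a (1464 CPM at 4 days), with Ivl going from 0 in freshly isolated cells to 9.18 CPM at 4 days and 34.8 CPM at 2 weeks, and Sprr3 and Trp63 at 0 at 4 days. Both squamous markers tested, Sprr1a and Ivl, were called higher at 1 day (6.57% of all genes were) and at each later time (14.1% at 2 weeks). They held 0 counts in freshly isolated cells, passed the filter through later libraries and could hardly come out other than higher. The part of these cells or programs in the keratin values was not tested.

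Passaged dediHeps were compared with freshly isolated hepatocytes and with the 2-week culture, to ask what the stable monolayer state keeps. Against freshly isolated cells, 4 of the 5 keratins tested were called higher (13.1% of 11276 genes were). Krt7, Krt19 and Krt20 passed the filter through the dediHep libraries and could hardly come out other than higher. Krt8 rose by 2.18 ± 0.34 (edgeR FDR 0.000417), and Krt7 (FDR 1.74e-05), Krt19 (FDR 0.000415, at least 196-fold) and Krt20 (FDR 3.87e-05, at least 259-fold) rose from 1, 0 and 0 counts; replicate 3 held 1658 of the 2534 Krt19 counts in dediHep, and the fitted change was 10.31 without it and 11.33 with it. Krt18 was 1.43 ± 0.42 higher (FDR 0.0199), under the fold threshold, although no dediHep library overlapped a freshly isolated one. Krt23, with 77 counts against 2, a ratio of 8.95 (95% interval 2.40 to 75.2, counting error only), was not tested. Against the 2-week culture, which shares the dediHep libraries, 0 of 6 keratins were called (5.93% of 11167 genes were). With edgeR 5 had an unadjusted p under 0.05, as did 3198 of the 11167 genes, and DESeq2 called 0 keratins. The changes were 1.35 ± 0.45 for Krt7 (FDR 0.0813), 1.71 ± 0.63 for Krt19 (FDR 0.106; 0.86 without dediHep replicate 3), 1.09 ± 0.41 for Krt20 (FDR 0.111), -0.76 ± 0.26 for Krt18 (FDR 0.0898) and -0.58 ± 0.26 for Krt8 (FDR 0.17).

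Aggregation of dediHeps in 3D, a culture that favours hepatocyte maturation, was followed by a lower Krt19. Krt19 fell by 3.10 on the log2 scale (SE 0.74, edgeR FDR 0.0226), the single call among 6 keratins tested (5.11% of 11265 genes were called lower), and it was lower in each of the 3 cultures that gave both libraries, at 0.10, 0.409 and 0.175 of its own monolayer. Krt7 had a log2 fold change of -1.90 (SE 0.49, FDR 0.0286), under the fold threshold, at 0.365, 0.872 and 0.232 of its own monolayer. Its change was -2.15 without dediHep replicate 2 and -2.06 without aggregate replicate 1, both past the threshold. The change of Krt19 was -2.25 without dediHep replicate 3, the library at 512 CPM, and -2.26 with the culture as a block, both still called, and DESeq2 gave it no adjusted p. The changes of Krt8 (0.03, 95% interval -0.50 to 0.56), Krt18 (0.04, -0.50 to 0.59) and Krt20 (-0.01, -1.06 to 1.04) were inside the spread between libraries, and these intervals allow changes of that size. Compared with freshly isolated hepatocytes, 4 of 5 keratins tested were called higher in the aggregates (6.78% of 9544 genes were): Krt8 by 2.24 ± 0.37 (FDR 0.00128), Krt7 (FDR 2.8e-05), Krt19 (FDR 0.00211, at least 21.0-fold) and Krt20 (FDR 0.000269, at least 234-fold). Of these, Krt7, Krt19 and Krt20 passed the filter through the aggregates and could hardly come out other than higher. Fitted changes fell from 7.84 to 7.08 for Krt19 without aggregate replicate 2 and from 11.59 to 10.98 for Krt20 without aggregate replicate 1. Krt18 was at 1.50 ± 0.47 (FDR 0.0349), and at 2.03 without freshly isolated replicate 3. Hepatocyte markers summed to 7897-12244 CPM in the aggregates, and mesothelial markers to 87.2-259 CPM against 452-1376 CPM in dediHep; the part of the mesothelial markers in the values of Krt7 and Krt19 was not tested.

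When dediHeps were grown as spherical organoids, Krt4 and Krt23 rose and the other keratins tested did not pass the thresholds. Krt4 went from 0, 1.02, 2.16, 0 and 0 CPM in dediHep to 116, 113 and 146 CPM (log2 fold change 7.34 ± 0.73, edgeR FDR 0.000141), and Krt23 rose by 3.38 ± 0.71 (FDR 0.0114). The change of Krt4 was 8.74 without dediHep replicate 3, which held 7 of the 9 counts, and that of Krt23 was 3.98 with the replicate number and 4.00 with the culture as a block. These were 2 calls among 7 keratins tested (4.12% of 11470 genes were called higher). Krt4, with 9 counts in dediHep, passed the filter through the organoid libraries and could hardly come out other than higher. Krt23, at 0.547, 2.54, 11.4, 12.2 and 1.93 CPM in dediHep, also passed the filter only with the organoid libraries. The 2 calls are therefore not read against the share over all genes. Krt20 was lower in all 3 organoid libraries than in any dediHep library, with a change of -1.50 ± 0.42 (FDR 0.0436) that missed the fold threshold, at 0.266, 0.352 and 0.459 of the monolayer of the same culture. Krt7 (0.71 ± 0.42, FDR 0.329) and Krt19 (0.65 ± 0.56, FDR 0.503) overlapped with dediHep, and without dediHep replicate 3 the change of Krt19 was 1.47 (FDR 0.00585), under the fold threshold. Overlap with dediHep was also seen for Krt8 (0.22, 95% interval -0.21 to 0.66) and Krt18 (0.30, -0.14 to 0.75). Within cultures Krt7 was 1.82, 1.38 and 5.17 times and Krt19 3.26, 0.620 and 2.81 times its monolayer level. Cholangiocyte markers summed to 2477-3278 CPM in dediHep-SO against 401-1157 CPM in dediHep (4 of 7 tested were called higher), with Epcam at 295 CPM and Cftr at 10.3 CPM, and 5 of 6 hepatocyte markers tested were called lower; their part in the values of Krt4 and Krt23 was not tested.

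The spherical organoids were set against their gut counterpart, FIPC-SO, to ask how far the hepatocyte-derived form resembles it. Krt4 was called higher in dediHep-SO, by 2.34 ± 0.51 (edgeR FDR 0.0123), the single call among 7 keratins tested (4.92% of 11608 genes were called higher), and without FIPC-SO replicate 2 the change was 1.94 and no keratin was called, while without replicate 1 it was 3.05. Krt7 (1.65 ± 0.28, FDR 0.0037), Krt18 (1.34 ± 0.25, FDR 0.00573) and Krt8 (1.01 ± 0.29, FDR 0.0414) passed the FDR and missed the fold threshold, and their libraries did not overlap. Krt23 (1.36 ± 0.44, FDR 0.064) and Krt20 (1.25 ± 0.43, FDR 0.076) also passed the FDR and missed the fold threshold, and Krt19 (0.57 ± 0.26, FDR 0.167) missed both. Their changes lay in the same direction, and of Krt23, Krt20 and Krt19 only Krt23 had overlapping libraries. The 8 keratins together summed to 3639 ± 371 CPM in dediHep-SO and to 1514 ± 379 CPM in FIPC-SO.

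Between the spherical and the budding form of the hepatocyte-derived organoids, Krt4 and Krt7 fell, and these were the 2 calls among 7 keratins tested (5.68% of 11301 genes were called lower). Krt7 went from 824, 1013 and 781 CPM to 188, 166 and 147 CPM (-2.38 ± 0.22, edgeR FDR 8.05e-05). Krt4 went from 915 counts to 1, a count ratio of 823 (95% interval 147 to 32523, counting error only, edgeR FDR 2.13e-05). It passed the filter through the spherical libraries and could hardly come out other than lower. Krt20 moved the other way, from 117, 102 and 94.6 CPM to 529, 314 and 320 CPM, and its change of 1.88 ± 0.27 (FDR 0.00094) missed the fold threshold; it was 2.04 without dediHep-BO replicate 2, 2.05 without replicate 3 and 2.01 on counts corrected for repeated tags. Krt18 (-1.27 ± 0.22, FDR 0.00231), Krt19 (-0.92 ± 0.25, FDR 0.0234) and Krt8 (-0.59 ± 0.21, FDR 0.0573) were lower in every budding than in every spherical library without reaching the fold threshold, and Krt23 (-0.21 ± 0.37, FDR 0.684) overlapped. Mesothelial markers summed to 580-1021 CPM in dediHep-SO, almost wholly Msln (746 CPM), and to 13.52-36.7 CPM in dediHep-BO, the 7 enterocyte markers to 277-329 CPM and 1657-2706 CPM, and the 8 stellate cell and fibroblast markers to 0-0.945 CPM and 4.31-291 CPM, mostly Col1a1, Col1a2 and Col3a1; their part in these values was not tested.

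The budding organoids of hepatocyte origin and those of adult intestinal stem cells had 0 calls among 6 keratins tested (3.05% of 11303 genes were called). With edgeR 3 had an unadjusted p under 0.05, as did 2558 of the 11303 genes, and DESeq2 called 0 keratins. Krt7 was at 167 ± 20.4 CPM (n = 3) and 172 ± 98.9 CPM (n = 4), a change of 0.01 with a 95% interval of -0.76 to 0.77, and the intervals for Krt18 (0.07, -0.43 to 0.58) and Krt8 (-0.16, -0.62 to 0.30) were of similar width. Krt23 was higher in every dediHep-BO library (0.88 ± 0.28, FDR 0.0917), Krt20 had a change of 1.20 ± 0.43 (FDR 0.125) and Krt19 of -0.59 ± 0.25 (FDR 0.192). Between the 2 gut organoids, ISC-BO against FIPC-SO, Krt4 was the single call among 7 tested (2.62% of 11644 genes were called lower). It was at least 68.8-fold lower in ISC-BO (edgeR FDR 0.0011), passed the filter through FIPC-SO and could hardly come out other than lower. FIPC-SO replicate 1 held 113 of the 202 counts, and the fitted change was -8.20 without that library and -8.93 with it. Krt20 was higher in every ISC-BO library, at 124, 93.0, 119.6 and 362 CPM against 38.7, 20.3 and 70.8 CPM (1.94 ± 0.55, FDR 0.041), and it passed the fold threshold when FIPC-SO replicate 3 (2.51) or ISC-BO replicate 1 (2.09), 2 (2.15) or 3 (2.09) was left out.

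The change from spherical to budding form was compared between the 2 origins with an interaction term. This test was added after the values had been seen and uses the same libraries as the contrasts above. The gut pair set adult stem cells against E13.5 fetal progenitors, and the hepatocyte-derived pair also differed in Cdx2 and medium. The term therefore cannot tell origin apart from age, cell source, Cdx2 or medium. No keratin passed both thresholds (9.45% of 12379 genes did). The change was more negative in the hepatocyte-derived pair by -1.29 ± 0.37 for Krt18 (edgeR FDR 0.0384), -1.19 ± 0.35 for Krt19 (FDR 0.042), -1.67 ± 0.52 for Krt7 (FDR 0.0563) and -1.20 ± 0.39 for Krt8 (FDR 0.0625), and in a fit of all 49 libraries the FDRs were 0.109, 0.31, 0.105 and 0.124. For Krt20 the difference of the changes was -0.09 ± 0.66. For Krt4 the fit gave -0.39 ± 0.67, but Krt4 held 1 count in dediHep-BO and 0 in ISC-BO. That value depends on the prior count and does not measure whether the 2 falls were alike.

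**Figure D3:**
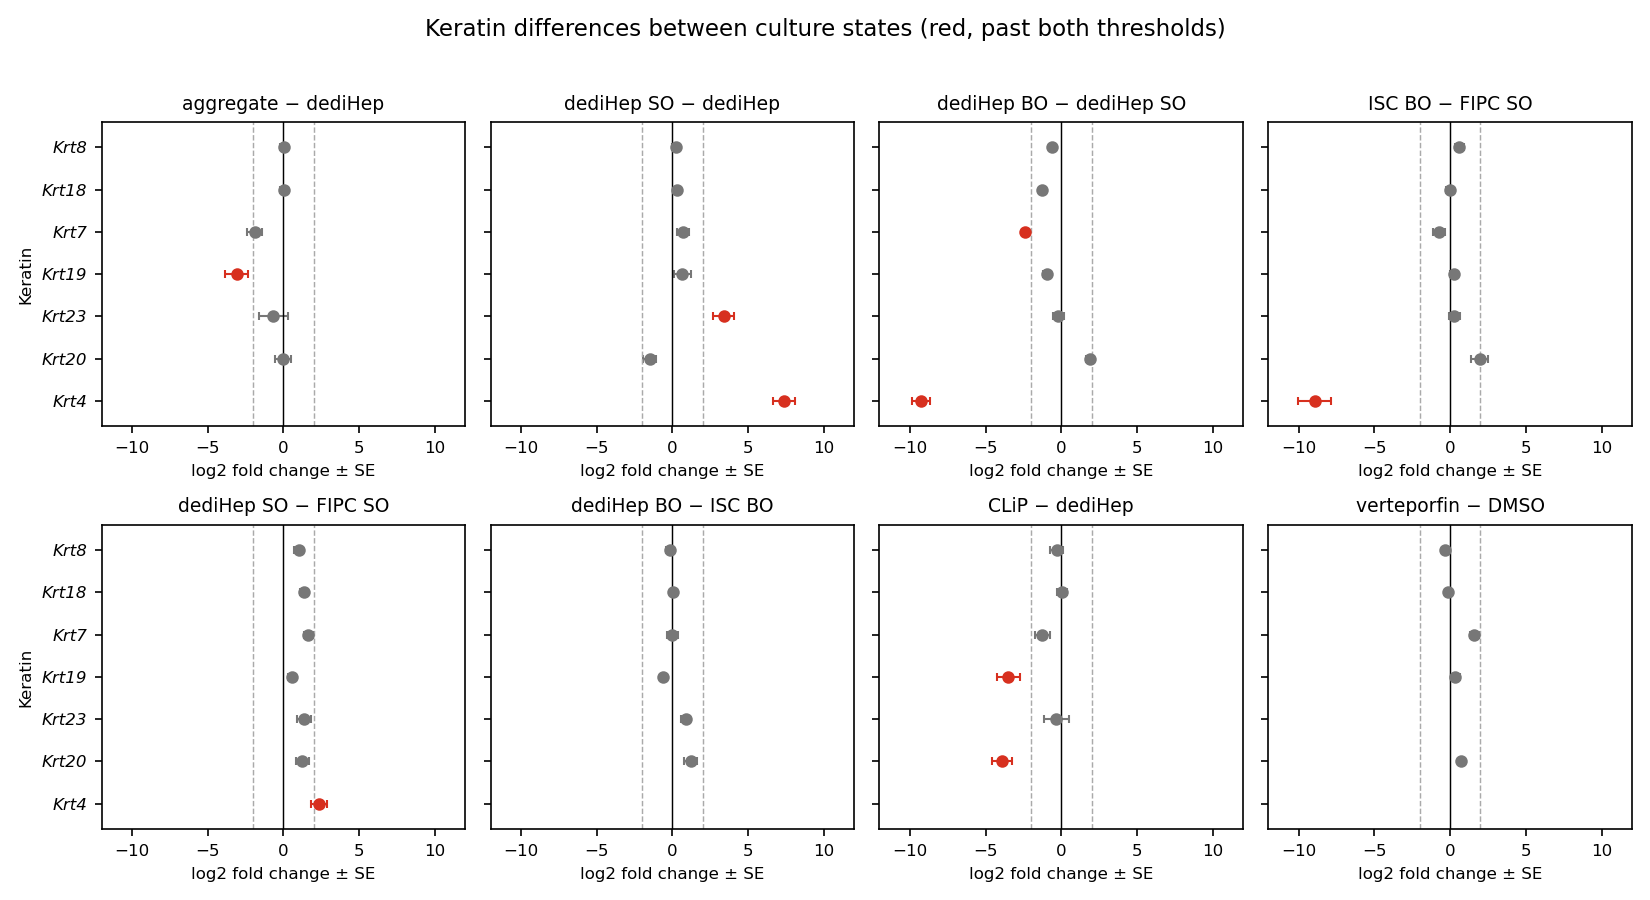
Log2 fold change (x axis, ± SE) of each tested keratin (y axis) in 8 comparisons of culture states, 1 panel each, with dashed lines at the fold threshold, red points past both thresholds and grey points otherwise. The fitted changes of Krt4 in the budding organoids stand against 1 and 0 counts, depend on the prior count and are not bounds; Krt7 at -2.38 and Krt20 at 1.88 move apart between the spherical and the budding form.

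CLiPs, the small-molecule counterpart of dediHeps, held less Krt19 and Krt20 than the passaged monolayer. Krt20 was at 13.3, 38.5 and 9.27 CPM against 132 to 439 CPM in dediHep (-3.91 ± 0.64, edgeR FDR 0.015), and Krt19 at 23.1, 21.2 and 6.34 CPM against 84.9 to 512 CPM (-3.49 ± 0.78, FDR 0.0485). These were the 2 calls among 6 keratins tested (1.39% of 11567 genes were called lower), and the libraries did not overlap. Without CLiP replicate 1 or 3 the FDR of Krt19 was 0.166 and 0.117, and Krt19 was not called. Without dediHep replicate 3 the change of Krt19 was -2.66, and without CLiP replicate 2 that of Krt20 was -4.75. Krt7 (-1.26 ± 0.49, FDR 0.229), Krt8 (-0.31, 95% interval -1.10 to 0.49) and Krt18 (0.05, -0.61 to 0.71) overlapped with dediHep. Krt17 had 7 counts in CLiPs and 0 in dediHep, at least 3.18-fold higher, and was not tested. Cholangiocyte markers summed to 1476-2686 CPM in CLiPs against 401-1157 CPM in dediHep, mostly Spp1 (1018 CPM in CLiPs) and Sox9 (972 CPM). Prom1 went the other way (38.0 against 73.6 CPM), and 0 of the 6 cholangiocyte markers tested were called. Mesothelial markers summed to 143-171 CPM against 452-1376 CPM.

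Verteporfin was added for 1 week to ask what Yap inhibition does to the cultures, with 2 libraries a group. Of 5 keratins tested 0 were called (0.269% of 10400 genes were). With edgeR 2 had an unadjusted p under 0.05, as did 961 of the 10400 genes, and DESeq2 called 0 keratins. Krt7 was at 227 and 131 CPM with verteporfin and at 51.7 and 66.2 CPM with DMSO, a change of 1.60 ± 0.33 (edgeR FDR 0.136). Krt20 was at 383 and 431 CPM against 240.4 and 257 CPM (0.71 ± 0.22, FDR 0.368). Krt8 was at 1056 and 861 CPM against 1323 and 1062 CPM (-0.32 ± 0.22, FDR 0.707). Krt18 was at 1401 and 1260 CPM against 1488.5 and 1411 CPM, and Krt19 at 43.6 and 52.3 CPM against 35.3 and 39.5 CPM. With 2 libraries a group, a lack of overlap says little and is not read as a result. Krt17 had 11 counts against 2, a ratio of 5.88 (95% interval 1.28 to 54.5, counting error only), and was not tested.

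The make-up of the keratin pool differed with state. Krt8 and Krt18 together made 99.6% of the counts of the 8 genes in freshly isolated hepatocytes (99.4 to 99.9%), 95.5% at 1 day, 87.1% at 2 weeks, 64.8% in dediHep (55.1 to 83.0%) and 60.2% in dediHep-SO (58.4 to 61.3%). Their share was 79.3% in the aggregates and 84.8% in CLiPs, and 63.2% and 66.5% in FIPC-SO and ISC-BO. The rest was made up differently in each organoid. Krt7 took 23.9% in dediHep-SO and 8.84% in dediHep-BO, whereas Krt20 took 2.89% and 20.2%, and Krt4 took 3.47% in dediHep-SO and 1.49% in FIPC-SO. The sum of the 8 genes was 487 ± 246 CPM in freshly isolated hepatocytes, 2897 ± 537 CPM in dediHep and 1916 ± 256 CPM in dediHep-BO. Because of the ceiling on tags, the shares of Krt8 and Krt18 are understated in the deep libraries.

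**Figure D4:**
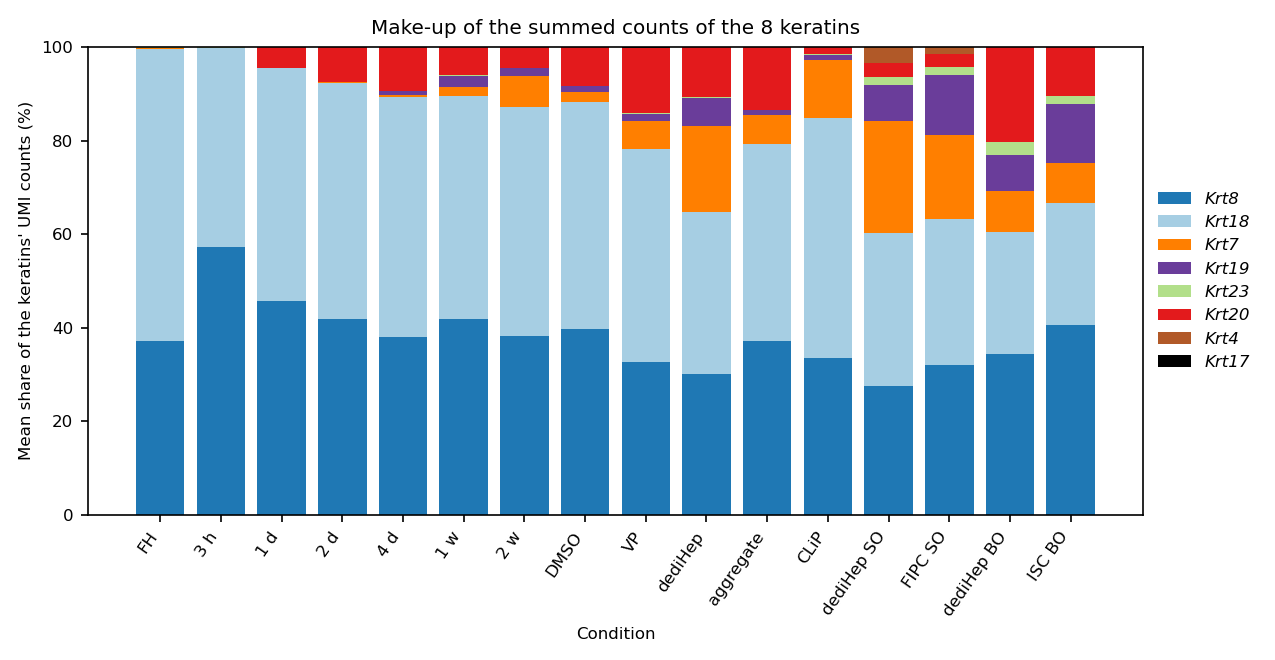
Mean share of each keratin in the summed counts of the 8 genes, in percent, as stacked bars for the 16 conditions. The Krt8 and Krt18 segments fill 99.6% of the bar in freshly isolated hepatocytes and 60.2% in dediHep-SO, with Krt7 the next largest segment in dediHep-SO (23.9%) and Krt20 in dediHep-BO (20.2%).

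Of the 46 other keratin rows, 14 had no count and 6 reached a mean of 1 CPM in some condition. The 3 highest were Krt6a, a keratin of stratified and wounded epithelium, Krt10, a keratin of differentiated epidermis, and Krt15, a basal keratin. Krt6a was at 17.9 ± 11.6 CPM in dediHep-SO and at 0 in dediHep-BO, Krt10 at 8.68 ± 2.67 CPM in dediHep-BO, and Krt15 at 8.31 ± 2.69 CPM in ISC-BO and 5.6 ± 3.11 CPM in dediHep-BO.

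A list of 17 non-keratin intermediate filament genes and a list of 20 desmosome and linker genes, whose proteins anchor keratin filaments at junctions, were counted beside the keratins. At 2 weeks, 7 of the 8 filament genes tested were called higher and 0 lower (14.1% and 15.3% of all genes), with a median change of 2.81 against 0.04 over all genes. They included Vim, the filament of mesenchymal cells (644 ± 163 CPM against 1.09 ± 1.88), Nes, a filament of progenitor cells (107 ± 11.1 against 1.72 ± 1.55), and Iffo2 (428 ± 60.5 against 54.5 ± 23.4). Vim, Nes and Prph held 3, 5 and 0 counts in freshly isolated cells. These genes passed the filter through cultured libraries and could hardly come out other than higher. The count and the median are therefore not read against all genes. In dediHep against freshly isolated cells 1 of 8 was higher (13.1% of all genes), a share near that of all genes: Vim at 268 ± 165 CPM (log2 fold change 7.65 ± 0.97, edgeR FDR 0.000107). There too Vim passed the filter through the cultured cells and could hardly come out other than higher. Against the 2-week culture 2 of 9 were lower (2.09% of all genes), Iffo2 and Nes. In the aggregates 3 of 9 were lower (5.11% of all genes), among them Vim at 21.8 ± 13 CPM (-3.59 ± 0.61, FDR 0.00496), where Krt19 was called lower and Krt8 and Krt18 showed the changes near 0 given above.

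Of the desmosome and linker genes 12 of 19 in the table were tested at 2 weeks, 3 were called higher and 2 lower (14.1% and 15.3% of all genes), with a median change of 0.90 against 0.04 over all genes. Dsc2, a desmosomal cadherin, was lower in dediHep (2.51 ± 3.68 CPM) than in freshly isolated hepatocytes (114 ± 54.3 CPM, edgeR FDR 0.000349). Ppl, a linker between filaments and desmosomes, was higher (113 ± 35.1 against 6.51 ± 3.07 CPM, FDR 0.000151). Dsc2 passed the filter through the freshly isolated libraries and Ppl through the dediHep libraries. In this comparison 2 of 10 genes were called higher and 1 lower (13.1% and 12.6% of all genes). In dediHep-SO against dediHep 4 of 13 were higher and 1 lower (4.12% and 4.65% of all genes), with a median of 0.00: Pkp3, a plakophilin, was at 131 ± 18.6 against 0.143 ± 0.199 CPM (FDR 4.89e-06), Pkp1 at 22.8 ± 6.16 against 1.18 ± 0.874 CPM (FDR 0.00107), and Dst, which ties filaments to hemidesmosomes, at 3.46 ± 0.929 against 83.4 ± 38.1 CPM (FDR 0.000739). Pkp3 and Pkp1, with 2 and 15 counts in dediHep, passed the filter through the organoid libraries and could hardly come out other than higher. Dst passed it through the dediHep libraries and could hardly come out other than lower. These counts of calls are therefore not read against the shares over all genes. In dediHep-BO against dediHep-SO, 1 of 13 was higher, Dsc2 at 200.5 ± 34.7 against 47.4 ± 29.2 CPM (FDR 0.0058, 5.6% of all genes were called higher). Evpl was the 1 called lower (FDR 0.0109, 5.68% of all genes were called lower), and it passed the filter through the spherical libraries.

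The genes most like each member were taken as the 3 with the highest Pearson correlation of log2(mean CPM + 1) over the 16 condition means, among 12685 genes; the condition means share their scaling, and r is given as a description. For Krt8 they were Dusp5 (r = 0.890), S100a10 (0.880) and Krt18 (0.864), and for Krt18 Tnfrsf12a (0.956), Creb3l2 (0.912) and Tubb6 (0.909). For Krt7 they were Parm1 (0.973), Cbx6 (0.968) and Nol4l (0.961), and for Krt19 Tspan8 (0.964), Capn5 (0.955) and Hk2 (0.951). Krt23 was most like Mcf2l (0.953), Liph (0.943) and Dock11 (0.940), and Krt20 most like Dynll1 (0.917), Gm13777 (0.903) and Slc25a24 (0.899). Among the members themselves, r was 0.917 for Krt7 with Krt19, 0.404 for Krt18 with Krt20, and 0.0612 for Krt8 with Krt7. Krt4 and Krt17 reached 5 CPM in too few conditions to be compared in this way.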

How the data were processed

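RNA of 49 libraries in 16 conditions was measured by CEL-seq2. The deposited table holds raw UMI counts per Ensembl gene, which the authors made by demultiplexing (bcl2fastq 2.20), alignment to GRCm38 (Bowtie2 2.3.1) and read counting (HTSeq 0.6.0) with collapsed molecular identifiers; tools and build are as listed in the submitters' processing notes. Library totals ran from 861047 to 3872936 counts, and a count of 0 allows 3 counts, or 0.671 to 3.91 CPM per library. Intervals and such limits cover counting error only.

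Symbols came from the mouse annotation, which named 45143 of 46078 identifiers. Counts were tested with edgeR 4.0.16 in R 4.3.3 (TMM, filterByExpr with a minimum count of 10, quasi-likelihood test, all genes tested adjusted together) in the groups each comparison concerns; the 6 times and the freshly isolated cells shared a fit. A call needs an FDR under 0.1 and a log2 change beyond 2 in either direction. The SE of a change was its size over the root of the test's F value, and 95% intervals of changes are normal approximations, which are narrow for so few libraries. DESeq2 1.42.0, RLE scaling, no filter, a fit of all libraries, counts corrected for repeated tags, replicate blocks and leaving out each library were the alternatives. The test was checked on simulated counts of dediHep against freshly isolated cells (11089 genes) and of dediHep-BO against dediHep-SO (11039 genes). Of 50 genes raised by 2.5 on the log2 scale, 40 and 48 were called. Of 50 genes lowered by 2.5, 43 and 46 passed the filter and 25 and 40 were called, so lower genes were missed more often.

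The members and gene lists were chosen with earlier results of these data known. The named genes are the 8 members, the 3 highest other keratins, up to 3 called genes with the smallest p of each list, and the 3 genes most like a member; Evpl and marker genes are named outside that rule, after their values were seen. Labels give replicate numbers and, for dediHep, aggregates and dediHep-SO, a culture name. Same-culture aggregates and dediHep deviated together (r 0.183 to 0.342 in 3 pairs), same-culture dediHep-SO and dediHep did not (-0.480 to 0.0308), and replicate numbers paired no group of 3 or more. The study states that its experiments were repeated independently, but the labels do not tie other libraries to separate animals or cultures, so p-values measure the spread between these libraries, which may in part be technical. Promoter windows are RefSeq's; those of Krt19, Krt4 and Krt17 were not used here.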

Additional observations from a re-analysis of the deposited data

Results flagged for a closer look

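Among 13 sets of libraries of 1 keratin in 1 condition with 4 or 5 libraries, 3 held a library far from the others by Dixon's test at the 95% level; about 1 in 20 such sets is expected to do so by chance. Krt20 stood at 362 CPM in ISC-BO replicate 4, and the nearest of the other 3 libraries was at 124 CPM. Krt8 stood at 556 CPM in dediHep replicate 1, below the nearest library at 895 CPM. Krt19 stood at 512 CPM in dediHep replicate 3, above the nearest library at 128 CPM.

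An interaction term, added after the values had been seen, compared the change from spherical to budding organoids between the hepatocyte-derived and the gut-derived pair. The gut pair also differed in age and cell source, and the hepatocyte-derived pair in Cdx2 and medium. The term is therefore no measure of origin alone. The difference of the 2 changes (hepatocyte-derived minus gut-derived, log2) was -1.20 for Krt8, -1.29 for Krt18, -1.67 for Krt7 and -1.19 for Krt19, with edgeR FDRs between 0.0384 and 0.0625. None of the 4 passed the fold threshold (9.45% of 12379 genes passed both thresholds), and in the fit of all 49 libraries none passed the FDR (0.105 to 0.31). The share of all genes past the FDR alone was not counted, so the 4 are not read as an excess.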

How the results depend on the processing

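The number of keratins called stayed within 1.5 times its value in all 17 comparisons under RLE size factors, with no low-count filter and in a fit of all 49 libraries. DESeq2 called 0 in the aggregates against dediHep, where it gave Krt19 no adjusted p. On counts corrected for repeated UMIs the count was 2 in place of 1 for the aggregates (Krt7 added, -2.19), for dediHep-SO against FIPC-SO (Krt7 added, 2.00) and for ISC-BO against FIPC-SO (Krt20 added, 2.03), and Krt18 was called at 1 week (2.56) and in the aggregates against freshly isolated cells (2.03). With the replicate number as a block the count was 1 in place of 2 for CLiPs against dediHep (Krt19 -3.26, FDR 0.155); the culture as a replicate block changed no count of calls, and the replicate numbers do not pair the samples. Leaving out 1 library gave 1 to 2 keratins called at 3 h, in the aggregates against dediHep, in ISC-BO against FIPC-SO and in CLiPs, and 0 to 1 in dediHep-SO against FIPC-SO; the report names the libraries. The cause of these changes was not tested.

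Values near 0 changed sign without being called. In the aggregates against dediHep they were -0.025 (Krt18) and -0.069 (Krt8) on corrected counts and 0.065 (Krt20) with the culture block; leaving out 1 library gave -0.21 to 0.25 (Krt18), -0.12 to 0.23 (Krt8) and -0.69 to 0.43 (Krt20). In dediHep-BO against ISC-BO, Krt7 was -0.012 with DESeq2, -0.013 with RLE factors, -0.0082 with no filter, -0.027 with all 49 libraries, -0.016 on corrected counts and -0.16 with the block (-0.24 to 0.47 leaving out 1 library), and Krt18 was -0.12 with the block (-0.12 to 0.20), with Krt8 at -0.31 to 0.041. In ISC-BO against FIPC-SO, Krt18 was 0.010 with DESeq2 and RLE factors, 0.0093 with no filter, 0.025 with all 49 libraries and 0.20 with the block (-0.17 to 0.19). In CLiPs, Krt23 was 0.46 with the block (-0.60 to 0.10 leaving out 1 library), Krt18 ran from -0.19 to 0.37 and Krt8 from -1.03 to 0.022, and Krt23 in dediHep-BO against dediHep-SO from -0.53 to 0.0054.

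Counts over all genes that moved by more than 1.5 times without the low-count filter were 4481 against 2901 (dediHep against freshly isolated), 1550 against 662 (against 2 weeks), 1608 against 1071 and 3007 against 1580 (aggregates against dediHep and freshly isolated), 1652 against 1005 (dediHep-SO against dediHep), 2385 against 1275 (dediHep-BO against dediHep-SO), 2052 against 1034 (dediHep-SO against FIPC-SO), 798 against 345 (dediHep-BO against ISC-BO), 1504 against 771 (ISC-BO against FIPC-SO), 714 against 352 (CLiPs) and 90 against 28 (verteporfin). In the fit of all 49 libraries they were 1303, 1805, 2725, 1678, 1953, 1558, 1169 and 0 for the comparisons with 662, 1071, 1580, 1005, 1034, 771, 352 and 28. DESeq2 called 537 in CLiPs, and the replicate block 59 with verteporfin. Leaving out 1 library gave 620 to 1527 genes at 3 h (860 with all), 285 to 766 for dediHep against 2 weeks, 1234 to 2108 for dediHep-BO against dediHep-SO, 1023 to 1716 for dediHep-SO against FIPC-SO, 109 to 488 in CLiPs and 33 to 106 with verteporfin. Krt17 and, outside spherical organoids, Krt4 had at most 10 counts in any library, too few for the filter in most fits.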
